A study of Mus musculus with 12 samples.

Results

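Wnt pathway regulators were described in mouse hip cartilage, taken from the femoral epiphysis, with and without mechanical injury. The 10 genes were Frzb, Sfrp1, Sfrp2 and Dkk3 (secreted antagonists), Wnt16 (a ligand), Lrp5 and Lrp6 (co-receptors), Lef1 and Tcf7 (nuclear factors) and Axin2 (a feedback target). They were chosen by name, and all array probes carrying one of these symbols were taken. Of the 10 genes, 9 had a probe among the 21004 probes (15434 gene symbols) of the normalized table, with 13 probes in all. Lef1 had its 4 probes only among the non-normalized signals, and 4 further probes of Dkk3, Lrp5 and Tcf7 were found there too.

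Total RNA was hybridized to 12 Illumina BeadChip arrays. Control and injured hips of WT and of Mapk9 KO mice made up 4 groups of 3 arrays. All mice were of C57BL6 background and aged 4 to 6 weeks per the labels, and the KO groups carried the Mapk9 knockout (Mapk9 encodes the kinase JNK2). Injury was avulsion of the femoral epiphysis from freshly culled animals. Control hips were frozen at once, whereas injured hips spent 4 hours in serum-free medium before freezing, so injury and culture cannot be told apart. Per the methods each replicate pooled 6 hips from 3 animals; the methods describe control and injured hips without naming a genotype, and how the knockout was made is not given in the sources used here.

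Wnt ligands bind a frizzled receptor together with the co-receptor Lrp5 or Lrp6, which stops the destruction of beta-catenin. Beta-catenin then enters the nucleus and, bound to Tcf7, Lef1 or a related factor, switches on target genes such as Axin2, whose product restores beta-catenin destruction. Secreted frizzled-related proteins (Frzb, Sfrp1, Sfrp2) bind ligands outside the cell. In cartilage the pathway is known for its role in chondrocyte maturation and in osteoarthritis, and Frzb is a known chondrocyte product.

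A detection p under 0.05 on an array, from the non-normalized signals, is called detected here, and levels are normalized log2 signals. Each array detected between 16930 and 18969 of 45281 probes, and array medians lay between 7.55 and 7.70. The Mapk9 probe ILMN_2716527 was between 5.03 and 7.29 on the WT arrays and between 3.42 and 4.28 on the KO arrays, where it was detected on none. The other Mapk9 probe in the table, ILMN_2591066, was detected on all 12 arrays, between 10.05 and 10.90 in WT and between 8.69 and 9.28 in KO. Both separated the genotypes without overlap.

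Several lists of cell type markers differed between control and injured hips. The mean of 9 chondrocyte markers lay between 10.56 and 11.34 on the WT control arrays and between 12.31 and 12.58 on the WT injured ones, and in KO between 10.59 and 11.28 and between 12.33 and 12.56. The mean of 10 skeletal muscle markers moved the other way, from between 11.76 and 12.94 to between 8.81 and 10.86 in WT and from between 13.09 and 13.60 to between 9.32 and 10.62 in KO. A fibroblast and tendon list (6 markers) went from between 10.08 and 10.13 to between 8.61 and 9.30 in WT and from between 9.83 and 10.08 to between 8.48 and 8.91 in KO. A bone cell list (7 markers) went from between 10.88 and 11.27 to between 10.41 and 10.75 in WT and from between 10.89 and 11.26 to between 10.01 and 10.28 in KO. The list means of control and injured arrays overlapped in both genotypes for 6 endothelial markers (8.94 to 9.31 and 9.17 to 9.28 in WT, 8.70 to 9.16 and 8.96 to 9.19 in KO) and for 8 erythroid and myeloid marrow markers (12.74 to 13.46 and 13.44 to 13.69 in WT, 13.14 to 13.51 and 13.16 to 13.69 in KO). A list of 7 markers of B cells and their precursors lay between 8.73 and 9.26 on WT control arrays and between 9.44 and 9.56 on WT injured ones, and overlapped in KO (8.98 to 9.32 and 9.17 to 9.32). In such bulk tissue, fewer cells of a type and less RNA per cell cannot be told apart, and the part of these shifts in the results below was not tested.

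**Figure D1:**
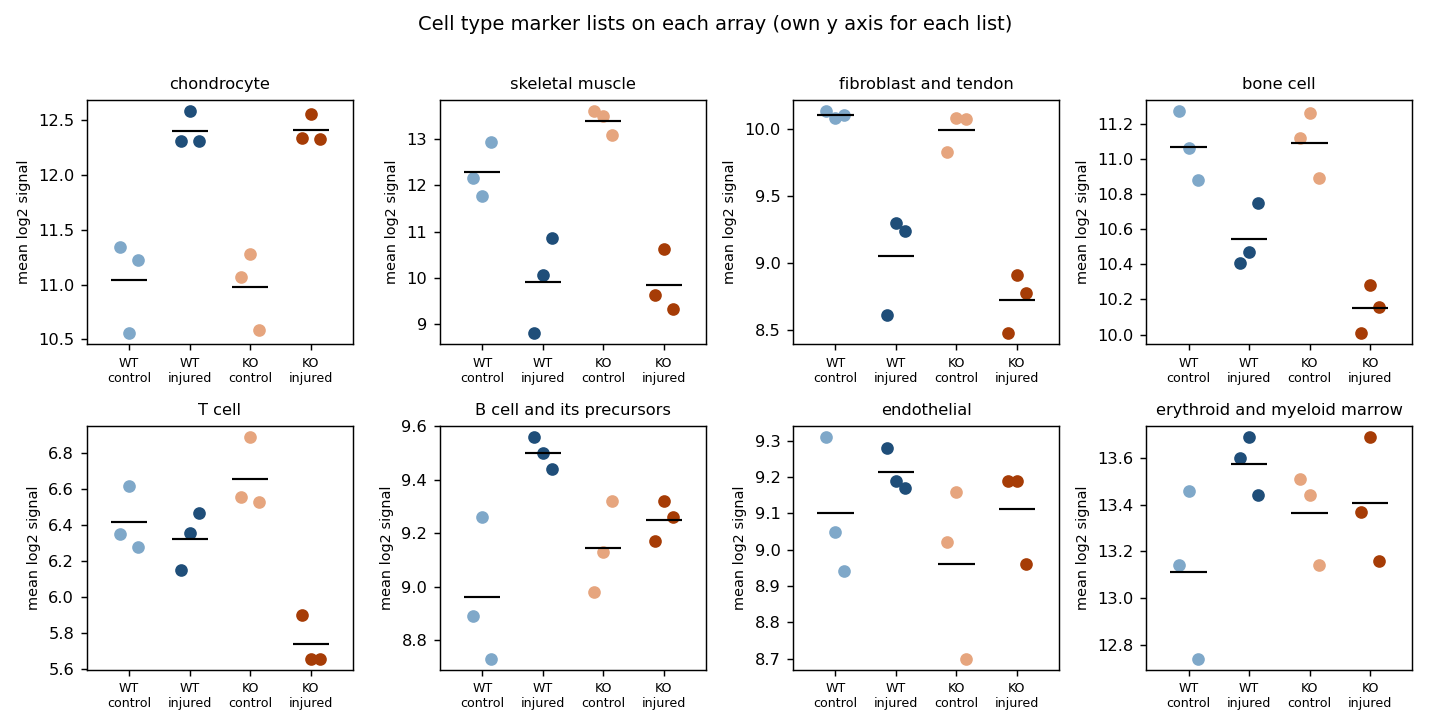
Mean log2 signal of each cell type marker list (y axis) on the 12 arrays by group (x axis); points are arrays and lines are means of 3. Chondrocyte lists of injured hips lie at 12.31 or above and those of control hips at 11.34 or below, while muscle, fibroblast and tendon, and bone lists lie lower in injured hips of both genotypes.

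Injury was followed by a rise of a single member, Frzb, and by lower signals of most other members with a clear difference. Past the threshold means a limma adjusted p under 0.05 over all 21004 probes together with a difference of over 2-fold, on 1 or more probes of the gene. In WT hips 6 of the 9 tested members passed, 1 upregulated (Frzb) and 5 downregulated (Dkk3, Sfrp2, Wnt16, Lrp5 and Tcf7), where 16.6% of all genes passed, 8.35% up and 8.24% down. In Mapk9 KO hips 4 of 9 passed, 1 upregulated (Frzb) and 3 downregulated (Dkk3, Wnt16 and Tcf7), where 20.9% of all genes passed, 10.6% up and 10.4% down. Without the fold limit the counts were 7 of 9 in WT and 5 of 9 in KO, beside 28.5% and 42.1% of all genes, and the added member was Axin2 in both. With the replicate number blocked, Sfrp2 (limma adjusted p = 0.0235) and Lrp5 probe ILMN_2942097 (limma adjusted p = 0.0289) also came under 0.05 in KO, both below the fold limit. The median log2 fold change of the members' brightest probes was −0.70 in WT and −0.52 in KO, against −0.02 over all probes in each. These genes were chosen by name with earlier results known, and the counts describe them alone. With the methods' t-test after Benjamini-Hochberg adjustment only Frzb passed in WT and 3 members passed in KO (Frzb, Dkk3 and Wnt16), where 9.16% and 18% of all genes did.

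**Figure D2:**
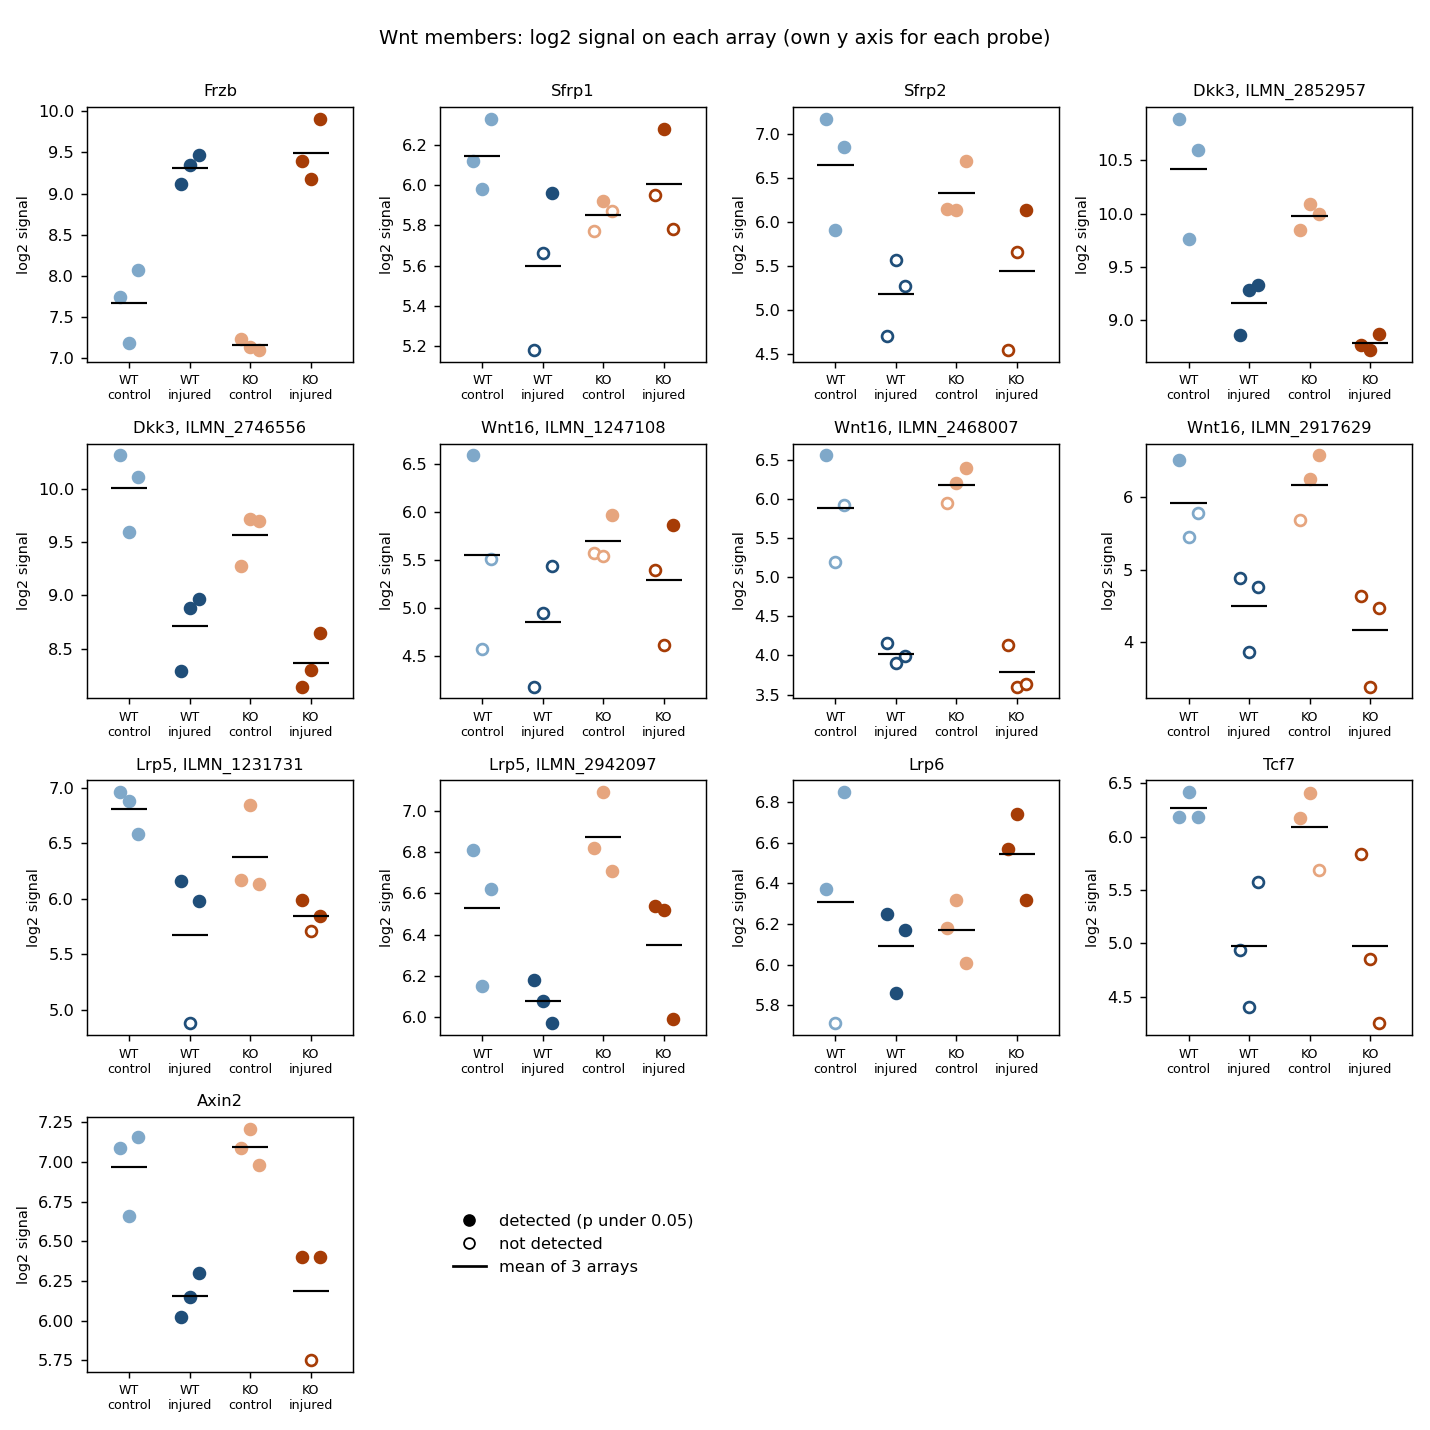
Normalized log2 signal (y axis, its own range for each probe) of the 13 member probes on each array by group (x axis); filled points are arrays with a detection p under 0.05, open points are not detected, and lines are means of 3. Frzb lies higher in injured hips of both genotypes, Dkk3 lies lower, and the Wnt16 and Tcf7 probes are mostly open in injured hips.

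Frzb, a secreted decoy for Wnt ligands, was the member that rose. Its WT control arrays read 7.75, 7.18 and 8.07 and its WT injured arrays 9.11, 9.35 and 9.47. Its KO control arrays read 7.24, 7.14 and 7.10 and its KO injured arrays 9.39, 9.18 and 9.91. Every injured array exceeded every control array of either genotype. The log2 fold change was 1.65 (SE 0.25, 95% interval 1.09 to 2.21, 3.13-fold) in WT, with a limma adjusted p of 0.00124. In KO it was 2.33 (SE 0.21, interval 1.87 to 2.80, 5.04-fold), with a limma adjusted p of 1.18e-05. By mean level the groups ran from KO control (7.16 ± 0.07, SD, n = 3) through WT control (7.67 ± 0.45) and WT injured (9.31 ± 0.18) to KO injured (9.49 ± 0.38), and within controls and within injured hips the genotypes' ranges overlapped. The chondrocyte marker list moved in the same direction with a median log2 fold change of 1.19 in WT and 1.54 in KO over its genes. Of these, 6 of 9 and 7 of 9 were upregulated, beside 8.35% and 10.6% of all genes. Another marker of the list, Col11a1, passed as downregulated in WT on 1 of its probes (ILMN_1232987, −1.26, limma adjusted p = 0.00254), while its brightest probe read 0.85 there. The list's part in the Frzb change was not tested.

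The 250 bases before the Frzb transcription start are shown because Frzb was the member that rose. In the RefSeq annotation of GRCm38.p6 they lie on the minus strand at chr2:80447397-80447646, printed 5′ to 3′ on the gene's strand, with a match to the TCF/LEF core in capitals.
Frzb: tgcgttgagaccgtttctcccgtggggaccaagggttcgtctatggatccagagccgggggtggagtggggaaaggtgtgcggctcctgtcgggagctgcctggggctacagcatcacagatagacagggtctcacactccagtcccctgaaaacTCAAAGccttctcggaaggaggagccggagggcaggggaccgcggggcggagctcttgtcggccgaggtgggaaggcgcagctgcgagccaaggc
The motifs searched on both strands were the TCF/LEF core CTTTGA and the AP-1 letters TGANTCA. The window held the TCF/LEF core 1 time, starting 95 bases before the start, and no AP-1 match. Of 32851 RefSeq windows of this length, 13.8% held the TCF/LEF core and 6.75% the AP-1 letters. RefSeq windows were at hand for 6 of the 10 members, 10 windows in all, and beside Frzb only 1 of the Lef1 windows held the TCF/LEF core, while none held AP-1. These matches describe letters and not binding.

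Dkk3, a secreted protein of the dickkopf family, fell in both genotypes and was detected on all 12 arrays by each of its probes in the table. Its probe ILMN_2852957 read 10.89, 9.76 and 10.60 in WT control hips and 8.86, 9.28 and 9.33 in WT injured hips. In KO the control arrays read 9.85, 10.09 and 10 and the injured arrays 8.77, 8.72 and 8.87. Injured arrays lay below control arrays in each genotype without overlap. The log2 fold change was −1.25 (SE 0.29, limma adjusted p = 0.0116) in WT and −1.20 (SE 0.17, limma adjusted p = 0.000246) in KO. A second probe, ILMN_2746556, gave −1.30 and −1.20 (limma adjusted p = 0.00563 and 0.000917) and shared no run of over 6 bases with the first. The remaining Dkk3 probe, outside the normalized table, was detected on 0 of 12 arrays.

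Sfrp2, a secreted frizzled-related protein made by connective tissue fibroblasts among others, fell in WT hips. Its WT control arrays read 7.17, 5.91 and 6.85 and its WT injured arrays 4.71, 5.57 and 5.27, none of which was detected. In KO the controls read 6.15, 6.14 and 6.69 and the injured arrays 4.55, 5.66 and 6.13, of which 1 was detected. The groups did not overlap in WT, and in KO the highest injured array lay just under the lowest control. In WT the log2 fold change was −1.46 (SE 0.34, limma adjusted p = 0.0106), and since no injured array detected the probe this is a signal at least 1.74-fold lower. In KO the value was −0.88 (SE 0.35, limma adjusted p = 0.0699) and did not pass, although it did without Mapk9 KO injured replicate 3 (−1.22, limma adjusted p = 0.0178). The difference between the genotypes' changes was 0.58 (SE 0.55, limma adjusted p = 0.766).

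Sfrp1, the other secreted frizzled-related protein, was dim and passed in neither genotype. It read 6.12, 5.98 and 6.33 in WT controls and 5.18, 5.66 and 5.96 in WT injured hips, where it was detected on 1 of 3 arrays. In KO it lay between 5.77 and 5.92 in controls and between 5.78 and 6.28 in injured hips. The log2 fold changes were −0.54 (SE 0.24, limma adjusted p = 0.129) in WT and 0.15 (SE 0.18, limma adjusted p = 0.574) in KO. Their difference of 0.69 (SE 0.30) had the smallest interaction p of the members, 0.0372 before and 0.466 after adjustment in limma. Of the 6 fibroblast and tendon markers, 4 were downregulated in WT and 5 in KO, beside 8.24% and 10.4% of all genes. The median log2 fold changes over the 6 were −1.01 and −1.20. Fap passed only on its dimmer probe, its brighter one reading −0.74 and −0.84, and Col1a1 read −0.01 in WT. The part of these markers in the Dkk3 and Sfrp2 values was not tested.

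Wnt16, a ligand of synovial joints and bone, was near background. The 3 probes have 50 bases each, and their first 30 bases are shown because the probes differed in response; capitals mark bases that ILMN_2468007 and ILMN_2917629 have in common.
ILMN_2468007: TGTAAGTAACCTCTCCGTCCAGCCTAGCAT
ILMN_2917629: ccgatgtccacacgTGTAAGTAACCTCTCC
ILMN_1247108: ccagaggaccttaggctactttctccgcct
The first and second probes share a run of 36 bases and so read nearly the same stretch of transcript, although the file places their starts at bases 1 and 1351 of the transcript. The third shares no run of over 6 bases with either. ILMN_2468007 read 6.56, 5.19 and 5.92 in WT controls and 4.16, 3.90 and 3.99 in WT injured hips. In KO it read 5.95, 6.20 and 6.40 in controls and 4.14, 3.60 and 3.63 in injured hips. Control and injured arrays did not overlap, but only 1 WT and 2 KO control arrays and no injured array detected it. The fitted log2 fold changes were −1.87 (SE 0.31, limma adjusted p = 0.00197) in WT and −2.39 (SE 0.21, limma adjusted p = 9.39e-06) in KO. The bounds are 1.03-fold and 1.25-fold lower. They are not firm, since the control means include arrays that did not detect the probe.

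The overlapping Wnt16 probe ILMN_2917629 gave −1.41 (limma adjusted p = 0.0123) and −2.0 (limma adjusted p = 0.000776). Its bounds of 1.05-fold and 1.24-fold are not firm either, as only 1 WT and 2 KO control arrays detected it. The separate probe ILMN_1247108, detected on 3 of 12 arrays, did not pass: it read 6.59, 4.57 and 5.51 in WT controls and 4.18, 4.95 and 5.44 in WT injured hips. Its groups overlapped in both genotypes, with values of −0.70 (SE 0.47, limma adjusted p = 0.312) and −0.40 (SE 0.29, limma adjusted p = 0.308). Without WT control replicate 2 it reached −1.19 (limma adjusted p = 0.0409) in WT. With normexp background correction the WT values of the overlapping probes were −0.95 and −0.81, under the fold limit.

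Lrp5 and Lrp6 are the co-receptors that pair with frizzled receptors. Lrp5 probe ILMN_1231731 read 6.96, 6.88 and 6.58 in WT controls and 6.16, 4.88 and 5.98 in WT injured hips, all lower than the controls. The log2 fold change of −1.13 (SE 0.32, limma adjusted p = 0.0256) passed in WT, but not without WT control replicate 1 (−1.06, limma adjusted p = 0.0866) or WT injured replicate 2 (−0.74, limma adjusted p = 0.0718). In KO it was −0.53 (SE 0.22, limma adjusted p = 0.0797). The other Lrp5 probe in the table, ILMN_2942097, was detected on all 12 arrays and gave −0.45 (SE 0.22, limma adjusted p = 0.173) and −0.52 (SE 0.21, limma adjusted p = 0.0676), so the Lrp5 probes did not give the same call in WT. The other Lrp5 probes, outside the table, were detected on 0 and 1 of 12 arrays.

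Lrp6 lay between 5.71 and 6.85 on the 12 arrays and its control and injured arrays overlapped in both genotypes. The values were −0.21 (SE 0.28, limma adjusted p = 0.628) in WT and 0.37 (SE 0.18, limma adjusted p = 0.14) in KO. Neither passed the test.

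Tcf7, a beta-catenin partner also known as T cell factor 1, was dim in control hips and not detected in injured ones. It read 6.19, 6.42 and 6.19 in WT controls, where all 3 arrays detected it, and 4.94, 4.40 and 5.58 in WT injured hips. In KO the controls read 6.18, 6.41 and 5.69 and the injured arrays 5.84, 4.85 and 4.25. The WT groups did not overlap, whereas in KO the highest injured array exceeded the lowest control. The fitted log2 fold changes were −1.29 (SE 0.28, limma adjusted p = 0.00854) in WT and −1.11 (SE 0.35, limma adjusted p = 0.0286) in KO. As a bound the WT signal was at least 1.34-fold lower. The KO bound of 1.18-fold is not firm, since 2 of 3 KO control arrays detected the probe. In WT the call was lost with normexp and quantile normalization and with the methods' t-test (adjusted p = 0.0968). In KO the call was lost on leaving out Mapk9 KO control replicate 1 or 2 or Mapk9 KO injured replicate 2 or 3, with limma adjusted p between 0.0573 and 0.11. The T cell marker list (5 genes, 1 of them detected on all 12 arrays and Cd3e on fewer than 3) lay between 6.28 and 6.62 in WT controls and between 6.15 and 6.47 in WT injured hips. It lay between 6.53 and 6.89 in KO controls and between 5.66 and 5.90 in KO injured hips. In each genotype 1 of 5 was downregulated (Cd247), beside 8.24% of all genes in WT and 10.4% in KO. The median log2 fold change of the list was 0.38 in WT and −0.40 in KO. In WT Cd3d read 0.98 (limma adjusted p = 0.0487), Cd3g 0.59, Cd3e 0.38 and Lck 0.02, and in KO these genes lay between −0.40 and −0.06. The list's part in the Tcf7 change was not tested. Another Tcf7 probe, outside the table, was detected on 2 of 12 arrays.

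Lef1, the sister factor of Tcf7, was at background. The 4 Lef1 probes had non-normalized signals between 101 and 209, where array medians over all probes lay between 121 and 190. A single probe was detected on 1 array, of a KO injured hip pool, and the others on none. No Lef1 level or change could be read at this signal.

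Axin2, the negative feedback target of beta-catenin, read 7.09, 6.66 and 7.16 in WT controls and 6.02, 6.15 and 6.30 in WT injured hips. In KO the controls read 7.09, 7.21 and 6.98 and the injured arrays 6.40, 5.75 and 6.40. Every injured array lay below every control array of both genotypes. The log2 fold change was −0.82 (SE 0.21, 95% interval −1.29 to −0.34, limma adjusted p = 0.0184) in WT and −0.91 (SE 0.21, interval −1.37 to −0.44, limma adjusted p = 0.0061) in KO. These are 1.76-fold and 1.87-fold, so that Axin2 passed the adjusted p in both genotypes and stayed under the fold limit. Without Mapk9 KO injured replicate 1 or 3 it passed both in KO (−1.02 and −1.01).

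The 250 bases before the RefSeq start of Axin2 (chr11:108920099-108920348, plus strand, GRCm38.p6) are shown beside those of Frzb because Axin2 is the textbook beta-catenin target among the members. They held neither CTTTGA nor TGANTCA on either strand, which says only that these letters are not in this window.
Axin2: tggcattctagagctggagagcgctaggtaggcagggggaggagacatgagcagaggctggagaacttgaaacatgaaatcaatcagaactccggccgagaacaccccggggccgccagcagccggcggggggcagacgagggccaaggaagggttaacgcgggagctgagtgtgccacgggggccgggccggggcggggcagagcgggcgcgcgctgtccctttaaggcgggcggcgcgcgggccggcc

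**Figure D3:**
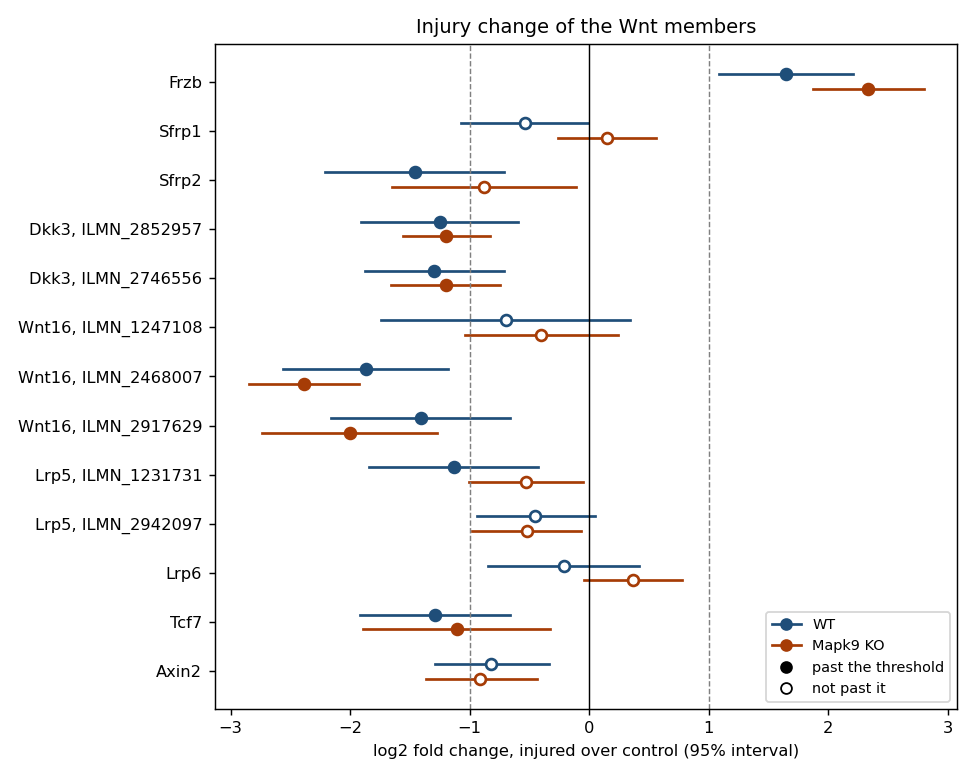
Log2 fold change, injured over control (x axis), of the 13 member probes (y axis) in WT and Mapk9 KO hips with 95% intervals from limma; filled points passed the threshold and dashed lines mark a 2-fold change. Frzb stands at 1.65 and 2.33, Axin2 at −0.82 and −0.91, and the separate Wnt16 probe ILMN_1247108 lies nearer to 0 than the overlapping pair.

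The genotypes were compared next. In control hips none of the 9 members passed in KO against WT (0.149% of all genes did), and none had an unadjusted p under 0.05 in limma, where 7.85% of all genes did. The smallest adjusted p was 0.82, that of Frzb, with −0.51 (SE 0.25, 95% interval −1.06 to 0.04). For the difference between the 2 injury changes, limma called none of the members and 0% of all genes, and 1 of 9 members (Sfrp1) had an unadjusted p under 0.05, as did 12.4% of all genes. With the replicate number as a block, limma called 112 probes of the table for this difference, 0 of them of members. The Frzb difference was 0.69 (SE 0.34, interval −0.03 to 1.41, limma adjusted p = 0.526). With 3 arrays a group such intervals are wide, and a p that misses the threshold does not show equal changes.

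Other genes of the pathway were taken from lists by role, 90 genes of which 58 had a probe in the table. In WT 4 passed as upregulated (Wnt7b, Rspo4, Lgr6 and Csnk1d) and 8 as downregulated (Wnt5a, Porcn, Fzd6, Lrp4, Apcdd1, Nkd2, Tnfrsf19 and Ccn4), with a median log2 fold change of −0.10. These 12 of 58 stand beside 16.6% of all genes (8.35% up, 8.24% down). In KO 9 were upregulated (Wnt7b, Wnt10b, Fzd7, Rspo4, Lgr6, Sfrp5, Csnk1d, Csnk1e and Myc) and 6 downregulated (Wnt5a, Lrp4, Apcdd1, Notum, Nkd2 and Tnfrsf19), with a median of 0.02. These 15 of 58 stand beside 20.9% of all genes (10.6% up, 10.4% down). Both counts are near the share of all genes. No gene of these lists passed for genotype in control hips or for the interaction, where 1 and 6 of the 58 had an unadjusted limma p under 0.05, beside 7.85% and 12.4% of all genes.

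Of the ligands and the genes for their release 8 of 20 were in the table. Wnt5a, which acts mainly outside the beta-catenin branch, fell from 9.26, 8.74 and 8.56 to 7.05, 7.42 and 7.35 in WT and from 8.70, 8.93 and 8.54 to 7.69, 7.03 and 7.12 in KO. Its log2 fold changes were −1.58 (SE 0.24, limma adjusted p = 0.00106) and −1.45 (SE 0.21, limma adjusted p = 0.000384). Wnt7b, a beta-catenin ligand, rose from 6.76, 5.55 and 6.14 to 7.82, 7.60 and 7.97 in WT and from 5.90, 6.37 and 5.58 to 7.27, 7.59 and 6.90 in KO, by 1.65 and 1.30 (limma adjusted p = 0.0028 and 0.00175). Control and injured arrays of both ligands did not overlap. Wnt7b was near background in controls, detected on 2 WT and 1 KO control arrays and on all injured ones. Porcn, the acyltransferase that ligands need for release, fell by 1.00 (SE 0.21, limma adjusted p = 0.00655) in WT, at the fold limit, and read −0.65 in KO. Wnt10b passed in KO on the fitted scale (1.07, limma adjusted p = 0.0396) and read 0.19 in WT, but in KO it was detected on none of the KO control arrays and on 2 of the injured ones, which allows no bound above 1.

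Among 12 frizzled and other receptors, 2 fell in WT, and in KO 1 rose and 1 fell, beside 16.6% of all genes past the threshold in WT and 20.9% in KO. Lrp4, a receptor relative that is also known from the neuromuscular junction, fell by 1.22 (SE 0.20, limma adjusted p = 0.00202) in WT and by 1.36 (SE 0.18, limma adjusted p = 0.000193) in KO. Skeletal muscle markers fell beside it, 9 of 10 in WT and 10 of 10 in KO, where 8.24% and 10.4% of all genes did. Their median log2 fold changes were −2.60 and −3.19, and their part in the Lrp4 change was not tested. Fzd7 rose by 1.30 (SE 0.20, limma adjusted p = 0.00055) in KO and read 0.86 (limma adjusted p = 0.0254) in WT, under the fold limit. Fzd6 fell in WT on its dimmer probe (−1.14, at least 1.45-fold, limma adjusted p = 0.00618), and its brighter probe read −0.84 (limma adjusted p = 0.0159).

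R-spondins and their Lgr receptors, which stabilise frizzled receptors at the cell surface, had 4 genes in the table, and 2 rose in both genotypes, beside 8.35% of all genes in WT and 10.6% in KO. Rspo4 read 5.72, 4.79 and 5.10 in WT controls, where 1 array detected it, and 6.56, 7.41 and 7.12 in WT injured hips, where all 3 did. The log2 fold change, from a control signal near background, was 1.83 (SE 0.29, limma adjusted p = 0.00167). In KO it was detected on no control array and on all 3 injured ones, at least 1.64-fold higher (1.48, limma adjusted p = 0.000126). Both Lgr6 probes rose, by 1.14 and 1.32 in WT and by 1.64 in KO on each, with limma adjusted p between 0.000134 and 0.0133. The remaining genes of this list, Rspo3 and Lgr5, passed in neither genotype.

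Of 7 other extracellular antagonists, Apcdd1, a membrane inhibitor of Wnt signalling, fell by 1.45 (SE 0.20, limma adjusted p = 0.000611) in WT and by 2.28 (SE 0.24, limma adjusted p = 3.5e-05) in KO. Sfrp5, a relative of Frzb, was detected on no control array and on all injured arrays. It rose in KO (1.56, at least 1.74-fold, limma adjusted p = 0.000681) and in WT read 0.96 (at least 1.41-fold, limma adjusted p = 0.0264), under the fold limit. Notum, an enzyme that inactivates ligands, passed as downregulated only in KO, on its dimmer probe (−1.05). Its brighter probe read 0.56 there (limma adjusted p = 0.169). The dimmer probe's bound of 1.12-fold is not firm, since 2 of 3 KO control arrays detected it. In WT the dimmer probe averaged 6.19 in controls and 5.25 in injured hips, where no array detected it, and did not pass.

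Inside the cell, 11 beta-catenin regulators were measured. Csnk1d, a casein kinase with several substrates beside this pathway, rose by 1.88 (SE 0.19, limma adjusted p = 0.000116) in WT and by 1.72 (SE 0.19, limma adjusted p = 4.27e-05) in KO on its brightest probe. Its 5 probes ranged from −0.01 to 1.88 in WT and from −0.24 to 2.55 in KO, and 3 of them passed in each. The 2.55 is the fitted value of ILMN_2746075, which no KO control array detected, so its size was not measured. Csnk1e passed in KO on 1 of 2 probes (1.19, limma adjusted p = 0.000449). Of the 11 other nuclear factors, 0 passed in limma in either genotype, beside 16.6% and 20.9% of all genes, and 4 in WT and 7 in KO had an unadjusted p under 0.05, beside 41.4% and 50.9% of all genes.

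Of 5 other target genes, 3 fell in WT (8.24% of all genes did), and in KO 2 fell and 1 rose (10.4% and 10.6% of all genes). Tnfrsf19, a receptor known as a beta-catenin target, had the largest fall of these lists in WT: 10, 9.91 and 9.73 became 7.71, 7.44 and 7.72 in WT, and 10.04, 10.11 and 9.53 became 7.77, 7.39 and 7.79 in KO. Its log2 fold changes were −2.25 (SE 0.20, limma adjusted p = 4.9e-05) and −2.24 (SE 0.21, limma adjusted p = 1.6e-05). A dimmer probe read −0.53 and −0.77, but no injured array of either genotype detected it, so these values are limited by background. Nkd2, a feedback inhibitor that binds dishevelled, fell by 1.65 (SE 0.22, limma adjusted p = 0.000558) and by 1.31 (SE 0.24, limma adjusted p = 0.00136). Ccn4, also named Wisp1, passed in WT only on its dimmer probe (−1.24, at least 1.47-fold), and its bright probe read −0.72 and −0.74. Myc, a growth regulator with many inputs beside Wnt, rose in KO (1.09, SE 0.31, limma adjusted p = 0.0181) and read 0.79 in WT (limma adjusted p = 0.0633). It was near background in controls, detected on 1 control array in each genotype and on 2 WT and 3 KO injured arrays.

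**Figure D4:**
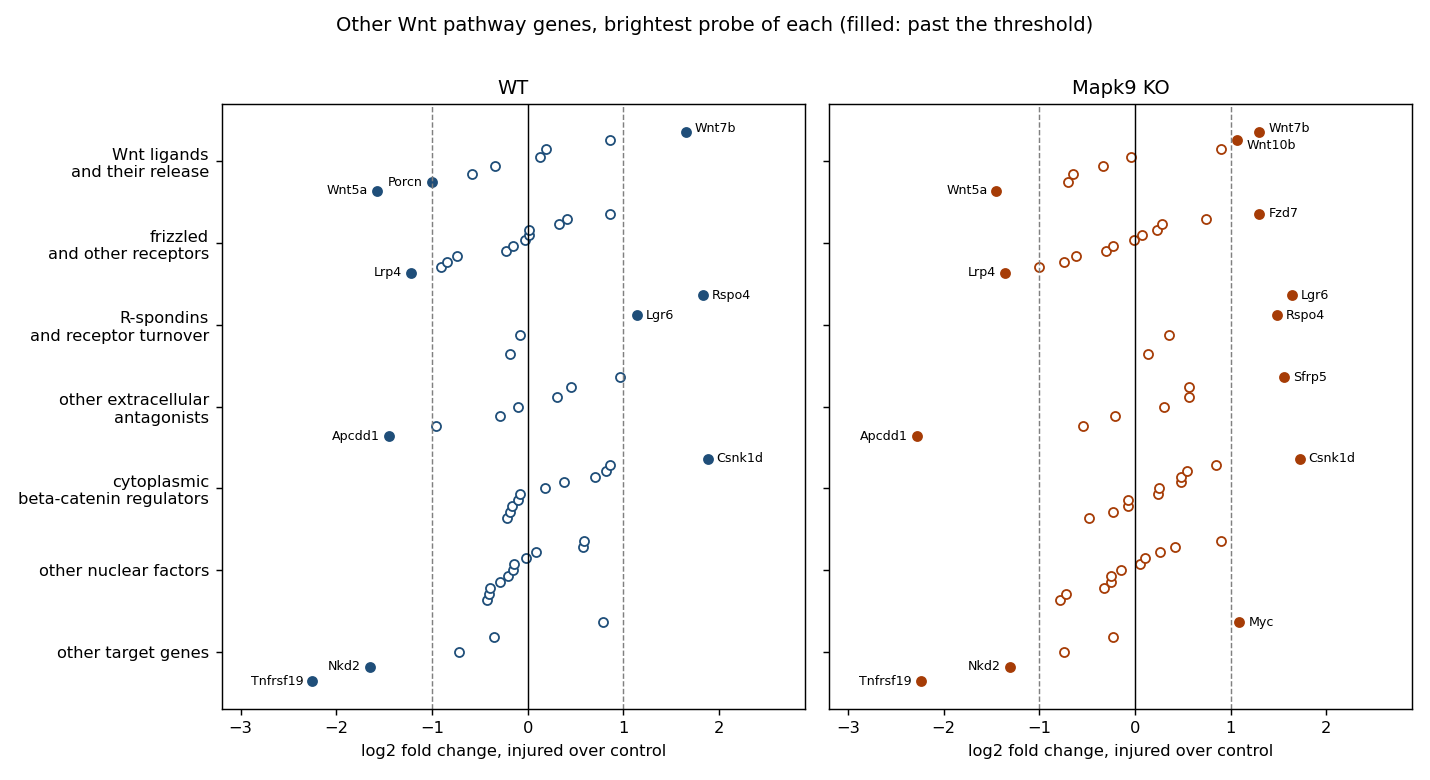
Log2 fold change, injured over control (x axis), of the brightest probe of 58 other Wnt pathway genes by list (y axis) in WT (left) and Mapk9 KO (right) hips; filled and named points passed the threshold and dashed lines mark a 2-fold change. Tnfrsf19 (−2.25 and −2.24) lies lowest in WT, and Fzd6, Ccn4, Csnk1e and Notum, which passed on another probe, are not named.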

How the data were processed

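Total RNA from mouse hip cartilage was hybridized to 12 Illumina mouse BeadChip arrays in 4 groups of 3, which the labels assign. The deposited non-normalized table holds the mean bead intensity of 45281 probes and a detection p-value for each, as deposited by the authors. The deposited normalized table holds log2 values of 21004 probes. Per the methods the authors corrected the background with negative control probes and applied vsn between arrays; the versions of R and vsn and the rule by which probes were left out of the table are not given in the sources used here. All tests used the deposited log2 values, with limma 3.58.1 (R 4.3.3) lmFit and eBayes on the arrays of the groups compared and Benjamini-Hochberg adjustment over all 21004 probes. Calls needed an adjusted p below 0.05 and, except for the interaction, a difference of over 2-fold. The interaction used all 12 arrays. Percentages of all genes count symbols with at least 1 probe past the same rule.

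Members were matched by symbol, and every probe of each was described. Lists of other Wnt genes and of cell type markers were matched through RefSeq accessions and symbols (12078 probes by accession, 3209 by symbol, 2784 by an older symbol, 2933 left as in the file). Of the other Wnt lists the text names, in each list, the 3 genes with the smallest adjusted p among those past the threshold in each genotype. The members and lists were chosen with earlier results of these data known. Where a probe was detected on no array of a group, the fold is a bound: the other group's mean against the mean of, per array, the probe's own value or, where higher, the lowest one among detected probes. Where that other group also has arrays that did not detect the probe, its mean includes them and the bound is not firm. A probe is called brighter or dimmer than another of its gene by its mean over all 12 arrays, and levels of different genes were not compared. The fit was tested on simulated data: of 200 probes shifted by 2 on the log2 scale in 3 draws, 83.67% were recovered for WT injury, 91% for KO injury, 83.33% for genotype and 80.33% for the interaction, each over 21004 probes, with on average 11, 9.667, 14.33 and 24.67 false calls in the same order.

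No 2 arrays held identical values (0 pairs; correlations between 0.868 and 0.986). Arrays with the same replicate number deviated together from their group means (18 pairs, correlation 0.153 to 0.390) while the other 36 pairs lay between −0.289 and 0.0825. The numbers were therefore taken to pair the arrays, and blocking on the replicate number was an alternative. The number of arrays limits the precision. The main fit has no replicate block, so its p-values measure the spread between arrays of a group, including what same-numbered arrays share. Alternatives were other background corrections and normalizations, array medians subtracted, a filter on dim probes, all arrays in 1 fit, the methods' t-test, no fold limit and leaving out each array. Probe coordinates, whose genome build is not named, were not used.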

Additional observations from a re-analysis of the deposited data

How the results depend on the processing

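The replicate block left 6 members in WT and 4 in KO past the threshold, as without it, and changed no call on a member at this threshold, though without the fold limit Sfrp2 and an Lrp5 probe came under 0.05 in KO; for the interaction it called 112 probes of the table and 0 members. Of 728 alternative values for the 13 member probes, 696 kept their call, 28 fell short of the threshold and 4 newly passed it. No value past the threshold changed sign, but 26 of the 696, none past it in either fit, did. Members past the threshold in WT numbered 3 with normexp and quantile normalization (Frzb, Dkk3 and Sfrp2; 2669 probes of the table against 3086), 2 with quantile normalization without background correction and 1 with the methods' t-test. In KO they numbered 2 without background correction. Frzb and Dkk3 passed in both genotypes under each normalization; by construction, uncorrected background shrinks the fold changes of dim probes (without it Wnt16 probe ILMN_2468007 read −0.47 in WT, Tcf7 −0.39 and Lrp5 −0.41). Leaving out single arrays gave 5 to 6 members and 2788 to 3415 probes in WT and 3 to 5 members and 3905 to 4123 probes in KO.

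Other Wnt genes in WT numbered 4 without background correction, 7 with the t-test and 25 with no fold limit, against 12, and in KO 7 without background correction and 35 with no fold limit, against 15. Over the table, WT probes numbered 1140, 1624 and 5319 under these 3 settings against 3086, and KO probes 1756 without background correction and 8045 with no fold limit against 3934. Genotype in control hips gave 25 probes, 13 without background correction, 44 with all arrays in 1 fit and 0 with the t-test. Without single arrays it gave 17 to 412 probes and 0 to 1 other Wnt genes, and the interaction 0 to 242 probes and 0 Wnt genes of either kind; the highest counts, 412 and 242, came without WT control replicate 3. The cause of these shifts was not tested. Signals near background limit Wnt16, Tcf7, Sfrp1 and Lef1, and other Wnt genes such as Rspo4, Wnt7b, Wnt10b, Sfrp5 and Myc.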
